A study of Mus musculus with 12 samples.

Results

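Transcripts of 34 genes that encode RNA polymerase I and the factors of ribosome assembly were followed in NIH/3T3 cells treated with a proteasome inhibitor, a topoisomerase II poison or both. The genes were taken from a list of symbols by their known roles, and each symbol was matched to 1 of the 56980 gene IDs of the deposited count table. All 34 passed the filter on low counts, as did 16648 genes in all. NIH/3T3 is an established line of mouse embryonic fibroblasts, labelled wild type. Polyadenylated RNA was sequenced in 12 libraries, 3 in each of 4 groups. Cells received the vehicle dimethyl sulfoxide (DMSO), 200 nM carfilzomib (CFZ, an irreversible proteasome inhibitor), 5 µM doxorubicin (DOX, an anthracycline that intercalates in DNA and traps topoisomerase II) or both drugs at these doses (CFZ-DOX). Every treatment lasted 8 h, so all groups share the line, the medium and a single time point. The labels number the replicates but do not say whether these were separate cultures, and the p-values then rest on a spread between libraries that may be technical.

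Ribosomes are built in the nucleolus. RNA polymerase I transcribes the long ribosomal RNA precursor there, helped by the DNA-binding protein UBTF and the initiation factor RRN3. Small nucleolar ribonucleoproteins (snoRNPs) then modify the precursor: box C/D particles methylate riboses, and H/ACA particles convert uridines to pseudouridines. Further factors cut the precursor and assemble the small and the large subunit. Doxorubicin and related anthracyclines are known to block RNA polymerase I transcription. Ribosomal RNA itself was not measured, since the libraries were made from polyadenylated RNA.

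Library totals ran from 28278879 to 42033993 counts. Of 10 fibroblast markers, 9 were above 1 CPM (counts scaled to a common library total) in all 12 libraries, and Lum was not. Their summed level was 26680 to 35020 CPM with DMSO, 18710 to 28530 with CFZ, 33400 to 57620 with DOX and 43640 to 75210 with CFZ-DOX. Most of that sum came from Col1a1, Col1a2, Fn1 and Vim. Against it, the mean of Pdgfra was 178 CPM with DMSO, 35.4 with DOX and 22.9 with CFZ-DOX, and that of Pdgfrb 206, 73.8 and 43.6 CPM. Summed leukocyte markers were at 0.987 to 1.47 CPM with DMSO and 7.98 to 13.9 CPM with CFZ-DOX, with 1 of 4 above 1 CPM in any library. Epithelial markers summed to 67.6 to 198 CPM over all groups, with 2 of 4 above 1 CPM in any library, and endothelial, muscle and adipocyte markers to at most 3.77 CPM. Their part in the results was not tested. In these bulk libraries, fewer cells of a kind and less RNA per cell cannot be told apart. DOX replicate 3 and CFZ-DOX replicate 3 stood apart from their groups on the third principal component (−60.6 and −24.6, against −7.1 to 43 for the other libraries with DOX). Cytosolic ribosomal protein genes took 4.22% of the counts in DMSO libraries and 4.24% in CFZ libraries, but 7.11% under DOX and 10.4% under the combination. The marker levels above were scaled to library totals alone. Levels of all other genes in CPM, and directions, are given with the scaling of the trimmed mean of M values (TMM). For members described in full, a called direction that turned under another scaling has that value beside it. Scaling to these 79 genes in place of TMM shifted the all-gene median (log2) by −0.87 in DOX against DMSO and by −1.65 in CFZ-DOX against DMSO. Upper-quartile scaling moved the same medians by 0.38 and 0.50, scaling to library size by −0.12 and −0.35. A gene is called here at an adjusted p under 0.05 with TMM scaling in edgeR's quasi-likelihood test, and a call that also held under 4 other scalings is said to hold in all 5.

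In DMSO libraries the members spanned a wide range. Levels between genes are compared as TPM, which also divides the counts by the deposited exon lengths. Npm1, which encodes the histone chaperone nucleophosmin, was the most abundant at 2972 ± 252 TPM (SD, n = 3), and Ncl, which encodes nucleolin, followed at 963 ± 70.5 TPM. Nhp2 of the H/ACA particle stood at 489 ± 48.7 TPM. At the low end were Polr1e at 22.6 ± 0.884 TPM, Rrp1b at 28.3 ± 2.44 TPM, Wdr12 at 29.4 ± 3.05 TPM and Polr1b at 38.5 ± 4.41 TPM. Rrp1b and Wdr12 did not differ beyond their spread. Together the members took 1.03 ± 0.0911% of all counts, and Ncl and Npm1 alone made up 47.2 ± 0.855% of that.

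RefSeq promoter windows of 250 bases before the start (build GRCm38.p6) were found for 29 of the 34 members. There was none for Bop1, Fbl, Npm1, Rrp12 and Rrs1. The windows below belong first to the 3 of these 29 members with the largest falls under DOX (Polr1b, Nop56, Wdr43). These lie in 3 roles, and Rrp1b came next (log2 −1.84, against −1.87 for Wdr43). Then come 2 members that rose (Nop10, Rrp9) and Rrn3, the initiation factor with opposite calls under CFZ and DOX. Capitals mark exact matches on either strand. Among the motifs searched was the E-box hexamer CACGTG. Another was the core bound by ETS factors, CCGGAAG. The GC box GGGCGG was searched as well, which reads CCGCCC where it lies on the other strand. The last was the TATA box hexamer TATAAA, and no motif contains another.
Polr1b (chr2:129100746-129100995, plus strand): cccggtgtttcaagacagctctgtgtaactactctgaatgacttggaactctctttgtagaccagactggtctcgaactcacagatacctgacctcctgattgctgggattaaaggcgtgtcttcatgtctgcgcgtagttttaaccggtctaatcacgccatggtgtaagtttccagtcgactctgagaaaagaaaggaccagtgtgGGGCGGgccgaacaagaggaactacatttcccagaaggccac
Nop56 (chr2:130274162-130274411, plus strand): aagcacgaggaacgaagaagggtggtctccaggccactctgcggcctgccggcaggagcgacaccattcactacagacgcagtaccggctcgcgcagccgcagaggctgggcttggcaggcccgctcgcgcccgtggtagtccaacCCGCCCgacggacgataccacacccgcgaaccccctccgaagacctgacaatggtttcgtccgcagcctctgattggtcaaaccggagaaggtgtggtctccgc
Wdr43 (chr17:71615965-71616214, plus strand): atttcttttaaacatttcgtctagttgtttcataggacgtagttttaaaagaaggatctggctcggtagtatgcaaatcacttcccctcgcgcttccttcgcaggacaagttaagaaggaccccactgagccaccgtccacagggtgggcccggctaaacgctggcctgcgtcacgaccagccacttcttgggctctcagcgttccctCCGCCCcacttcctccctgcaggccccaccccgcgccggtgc
Nop10 (chr2:112261676-112261925, plus strand): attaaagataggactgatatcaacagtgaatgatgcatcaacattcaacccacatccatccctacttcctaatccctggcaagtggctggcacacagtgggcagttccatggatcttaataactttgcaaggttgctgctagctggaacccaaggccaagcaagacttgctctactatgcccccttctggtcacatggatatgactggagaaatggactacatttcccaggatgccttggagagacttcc
Rrp9 (chr9:106477059-106477308, plus strand): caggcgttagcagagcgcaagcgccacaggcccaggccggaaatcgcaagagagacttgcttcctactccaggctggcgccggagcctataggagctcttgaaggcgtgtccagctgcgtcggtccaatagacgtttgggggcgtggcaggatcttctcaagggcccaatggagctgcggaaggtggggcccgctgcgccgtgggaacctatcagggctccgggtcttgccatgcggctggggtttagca
Rrn3 (chr16:13780449-13780698, plus strand): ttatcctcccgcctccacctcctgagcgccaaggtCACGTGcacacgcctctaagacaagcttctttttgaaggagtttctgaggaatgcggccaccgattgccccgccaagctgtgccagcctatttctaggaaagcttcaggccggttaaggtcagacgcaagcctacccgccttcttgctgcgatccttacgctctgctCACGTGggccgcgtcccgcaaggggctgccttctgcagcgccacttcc

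The GGGCGG hexamer occurred once in the windows of Polr1b, Nop56 and Wdr43 and in those of 19 of the 29 members. It was in 24 of their 38 windows (63.2%) and in 32.7% of 32851 windows of all genes. Rrn3 and Nop2 held CACGTG, which was in 5.26% of the 38 member windows and 6.02% of all windows. CCGGAAG was found in 6 members (15.8% of member windows, 6.91% of all windows). TATAAA was found in Dkc1 and Pes1 only (5.26% of member windows, 12.4% of all windows). The windows of Nop10 and Rrp9 held no match to these letters. Members of both directions held GGGCGG, and members of both lacked it. Of those called higher with DOX, Nhp2 and Ubtf held it, while Polr1d, Nop10 and Rrp9 did not. Among members with a window that fell in all 5 scalings, only Gar1, Ddx21 and Bysl lacked it. Whether the motif goes with direction was not tested. The matches are a description of sequence, and no binding was measured.

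Doxorubicin lowered most of the group. In DOX against DMSO, 20 of 34 members fell and 5 rose, where 31.3% of all genes tested fell and 36.1% rose. The median log2 fold change was −0.52 over the members and 0.14 over all genes. Of the 34 members, 11 fell by at least 2-fold, as did 3209 of all 16648 genes. In CFZ-DOX against DMSO, 23 members fell and 5 rose (35.7% and 39.3% of all genes), with a median of −0.67 against 0.09 over all genes. Both comparisons use the same DMSO libraries. The members' median was below 0 in all 5 scalings (−0.15 to −1.37 for DOX, −0.17 to −2.30 for CFZ-DOX), but the counts depend on scaling. For DOX, 13 members fell and 8 rose with upper-quartile scaling, and 31 fell with ribosomal protein scaling. For CFZ-DOX, 13 fell and 10 rose with upper-quartile scaling, and 33 fell with ribosomal protein scaling. In each comparison 13 members fell in all 5 scalings (22.3% of all genes for DOX, 24.8% for CFZ-DOX), the other falls were lost with upper-quartile scaling, and all 5 rises were lost under ribosomal protein scaling. Treated and DMSO libraries did not overlap for 21 members on the lower side and 5 on the higher side with DOX (33.8% and 38.7% of all genes), and for 22 and 5 with CFZ-DOX (37.2% and 39.1%). Without DOX replicate 3 and CFZ-DOX replicate 3, 20 members fell and 7 rose with DOX, and 25 fell and 7 rose with CFZ-DOX. The number that rose with DOX was also sensitive to single libraries: it was 2 without DMSO replicate 1, DMSO replicate 3 or DOX replicate 2, 3 without DOX replicate 1, and 8 without DOX replicate 3.

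**Figure D1:**
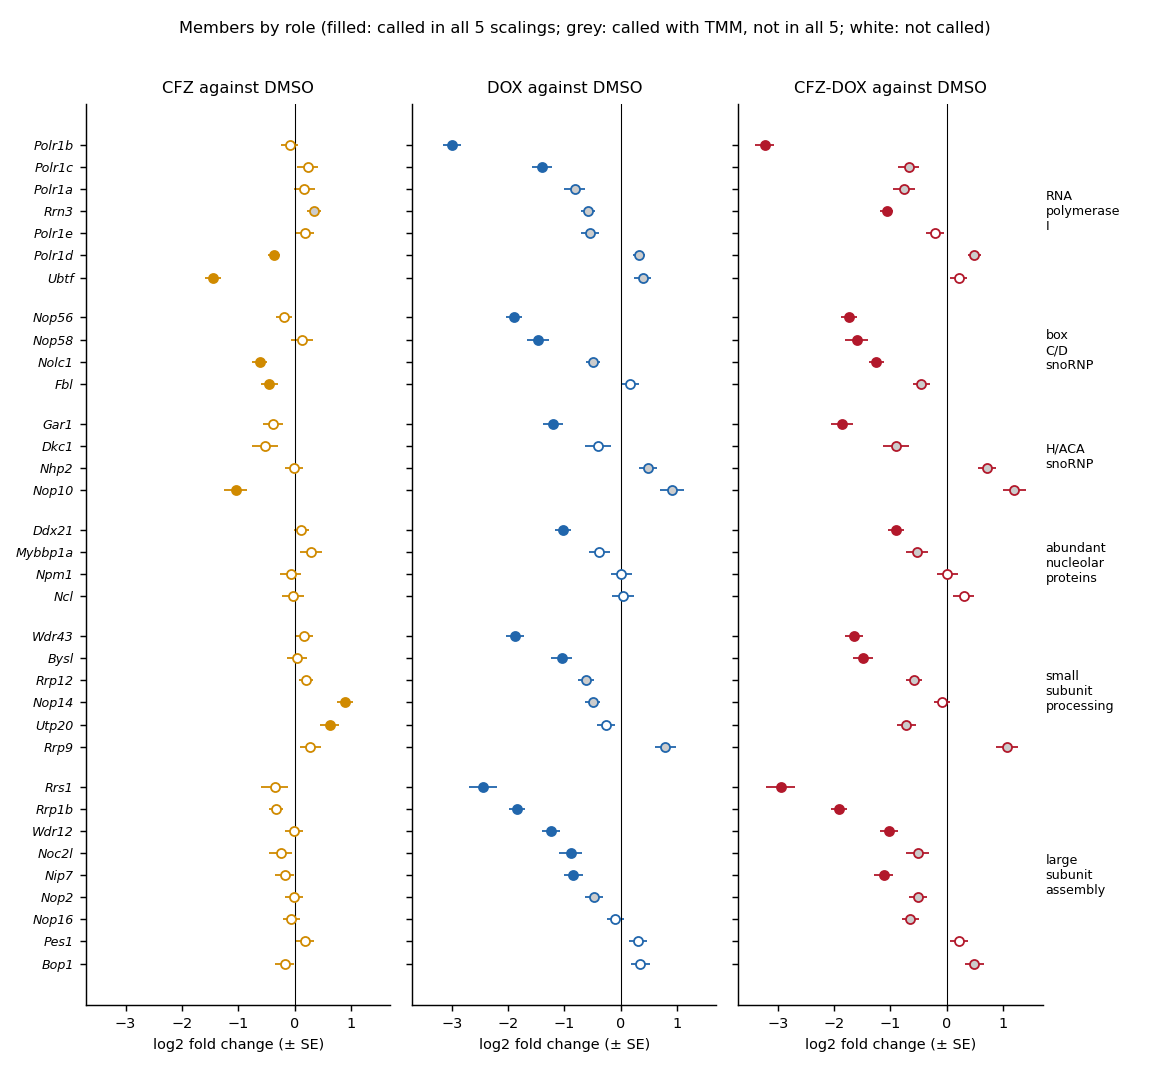
Log2 fold change of the 34 members against DMSO (x axis, bars are the standard error) by role, for CFZ, DOX and CFZ-DOX, 3 libraries per group. Filled points were called in all 5 scalings, grey points with TMM but not in all 5, and white points were not called. Polr1b and Rrs1 lie farthest to the left with DOX, and Ubtf and Nop10 farthest to the left with CFZ.

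Counts by role, here and below, rest on few genes and are to be read beside the shares of all genes. With DOX 31.3% of all genes fell and 36.1% rose, and with CFZ-DOX 35.7% fell and 39.3% rose. Of the 7 genes of RNA polymerase I and its factors, 5 fell and 2 rose with DOX, and 4 fell and 1 rose with CFZ-DOX. Polr1b, which encodes the second-largest subunit, stood at 48.8, 63.0 and 54.3 CPM in DMSO replicates 1 to 3, at 6.34, 8.01 and 6.54 CPM with DOX, and at 5.71, 5.71 and 6.25 CPM with CFZ-DOX. The groups were far apart, and all 6 libraries with DOX were below every DMSO library. It fell 7.96-fold with DOX (log2 −2.99, SE 0.16, adjusted p = 1.02e-08, edgeR) and 9.40-fold with CFZ-DOX (log2 −3.23, SE 0.17, adjusted p = 2.90e-09), the largest fall among the members in both. Polr1a, which encodes the catalytic subunit, fell less, by 0.82 and 0.76 on the log2 scale (adjusted p = 0.00152 and 0.00207), and these calls were lost with upper-quartile scaling. Polr1c, shared between polymerases I and III, fell by 1.40 with DOX and by 0.68 with CFZ-DOX (adjusted p = 1.12e-05 and 0.00284), and the second call was lost with upper-quartile scaling (log2 −0.19).

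The partner subunit of Polr1c went the other way. Polr1d, which forms a heterodimer with Polr1c, was at 59.4, 65.2 and 60.2 CPM with DMSO, 80.7, 79.4 and 70.7 CPM with DOX and 84.3, 91.3 and 84.0 CPM with CFZ-DOX. Both treated groups lay above all DMSO libraries. Polr1d rose by 0.32 with DOX (SE 0.11, adjusted p = 0.0187) and by 0.49 with CFZ-DOX (SE 0.11, adjusted p = 0.000995), but its log2 fold changes were −0.56 and −1.15 with ribosomal protein scaling. The DOX call was lost without DMSO replicate 1 or 3 or DOX replicate 1 or 2 (log2 0.27 to 0.29). Polr1e fell by 0.54 with DOX (adjusted p = 0.00695; −0.17 and not called with upper-quartile scaling) and was not called with CFZ-DOX (log2 −0.21).

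The factors that recruit the polymerase were uneven too. Ubtf, which encodes the DNA-binding factor of ribosomal RNA genes, was at 234, 260.3 and 241 CPM with DMSO, 298, 318 and 347 CPM with DOX and 259.9, 246 and 342 CPM with CFZ-DOX. All DOX libraries were above the DMSO libraries, while CFZ-DOX overlapped them. Ubtf rose by 0.39 with DOX (SE 0.15, adjusted p = 0.0284) and was not called with CFZ-DOX (log2 0.21, SE 0.15, adjusted p = 0.213). With ribosomal protein scaling the DOX value was −0.46, and the DOX call was lost without any 1 DMSO library or DOX replicate 2 (adjusted p = 0.0501 to 0.101). Rrn3, the initiation factor, fell to 94.3, 95.8 and 76.0 CPM with DOX and 64.0, 64.6 and 61.2 CPM with CFZ-DOX, from 132, 141 and 125 CPM. Both treated groups were below the DMSO libraries (log2 −0.58 and −1.07, SE 0.12 for both, adjusted p = 0.000665 and 2.10e-06). The DOX call was lost with upper-quartile scaling (log2 −0.20).

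The box C/D list held Fbl, Nop56 and Nop58 and, counted with them here, the snoRNP chaperone Nolc1. Of these 4 genes, 3 fell with DOX and 4 with CFZ-DOX. Nop56, a scaffold protein of the particle, went from 257, 326 and 283 CPM with DMSO to 77.5, 81.2 and 72.9 CPM with DOX and 78.5, 85.7 and 96.7 CPM with CFZ-DOX. No treated library came near the DMSO range. The falls were 3.74-fold (log2 −1.90, SE 0.14, adjusted p = 9.39e-08) and 3.32-fold (log2 −1.73, SE 0.14, adjusted p = 1.07e-07), both held in all 5 scalings. Nop58, the other scaffold protein, fell by 1.47 and 1.60 on the log2 scale (adjusted p = 1.52e-05 and 4.43e-06), also in all 5. Nolc1, which encodes a chaperone that brings snoRNPs to the nucleolus, fell by 0.49 with DOX and by 1.25 with CFZ-DOX (adjusted p = 0.00351 and 8.48e-07), the DOX call being lost with upper-quartile scaling (log2 −0.12).

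Fbl, which encodes the methyltransferase fibrillarin, was at 147, 173 and 156 CPM with DMSO, 186, 202 and 149 CPM with DOX and 114, 136 and 99.3 CPM with CFZ-DOX. DOX overlapped DMSO, and CFZ-DOX lay below it. It was not called with DOX (log2 0.17, SE 0.15, adjusted p = 0.326) and fell with CFZ-DOX (log2 −0.45, SE 0.15, adjusted p = 0.0157). The first value became a call without DOX replicate 3 (log2 0.39, adjusted p = 0.0352), and the second was lost without DMSO replicate 2 (adjusted p = 0.0569) and was 0.05 with upper-quartile scaling. Nop56 shares 5 exon bases with Idh3b on the other strand, a gene with 61.3% of its counts that was itself higher with DOX (log2 0.63, adjusted p = 0.00166).

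Of the 4 H/ACA snoRNP genes, 2 rose and 1 fell with DOX, and 2 rose and 2 fell with CFZ-DOX. Nop10, the smallest core protein of the particle, was at 32.8, 36.0 and 34.6 CPM with DMSO, 74.8, 72.8 and 47.1 CPM with DOX and 94.7, 89.5 and 54.3 CPM with CFZ-DOX. All treated libraries were above DMSO, with replicate 3 the lowest of both treated groups. It rose by 0.91 with DOX (SE 0.21, adjusted p = 0.00129) and by 1.20 with CFZ-DOX (SE 0.21, adjusted p = 0.000103), the highest values among the members, but ribosomal protein scaling gave −0.47 for CFZ-DOX. Gar1, another core protein, was at 44.8, 60.6 and 54.2 CPM with DMSO, 23.8, 27.2 and 18.4 CPM with DOX and 12.3, 15.7 and 15.9 CPM with CFZ-DOX. The 3 groups did not overlap. It fell 2.30-fold (log2 −1.20, SE 0.18, adjusted p = 4.63e-05) and 3.64-fold (log2 −1.86, SE 0.19, adjusted p = 5.96e-07), in all 5 scalings.

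The other H/ACA proteins followed the same division. Nhp2 rose by 0.48 with DOX and 0.72 with CFZ-DOX (adjusted p = 0.0172 and 0.000938), with −0.41 and −0.93 under ribosomal protein scaling. Its DOX call was lost without DMSO replicate 1 or 3 or DOX replicate 1 or 2 (log2 0.38 to 0.46). Dkc1, the pseudouridine synthase dyskerin, was not called with DOX (log2 −0.40, SE 0.23) and fell by 0.90 with CFZ-DOX (adjusted p = 0.00245), a call lost with upper-quartile scaling (log2 −0.40). Overlapping genes on the other strand, Mpp1 for Dkc1 (45 shared exon bases) and Rmnd5b for Nhp2 (44), had 38.4% and 9.32% of these genes' counts.

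Of the 4 abundant nucleolar proteins, 1 fell with DOX and 2 with CFZ-DOX. Ncl, a histone chaperone and RNA-binding protein, was at 2214, 2631 and 2440.0 CPM with DMSO, 2803, 2643 and 2025 CPM with DOX and 3387, 3338 and 2264 CPM with CFZ-DOX. The groups overlapped, and replicate 3 was the lowest of both treated groups. Ncl was not called (log2 0.04 and 0.30, SE 0.19 for both, adjusted p = 0.876 and 0.171), although CFZ-DOX was called without CFZ-DOX replicate 3 (log2 0.47, adjusted p = 0.0202). Its values were −0.86 and −1.36 with ribosomal protein scaling, both called lower, and −0.11 and −0.07 with library-size scaling, not called. With upper-quartile scaling they were 0.41, not called, and 0.81, called higher (adjusted p = 0.00319). Npm1 gave log2 fold changes of 0.01 in both comparisons (SE 0.19). These too depend on scaling, with −0.88 and −1.64 under ribosomal protein scaling and 0.51 for CFZ-DOX under upper-quartile scaling, all 3 called. Library-size scaling gave −0.13 for DOX, not called, and −0.35 for CFZ-DOX, called lower (adjusted p = 0.0314).

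Ddx21, an RNA helicase that acts in ribosomal RNA transcription and processing, fell in both comparisons. It was at 531, 649.7 and 556 CPM with DMSO, 283, 319 and 249.7 CPM with DOX and 299.6, 326 and 308 CPM with CFZ-DOX, with no overlap between treated and DMSO libraries. It fell 2.04-fold (log2 −1.03, SE 0.14, adjusted p = 2.08e-05) and 1.86-fold (log2 −0.90, SE 0.14, adjusted p = 4.67e-05), in all 5 scalings. Mybbp1a, a nucleolar transcriptional co-regulator, was not called with DOX (log2 −0.38, adjusted p = 0.092) and fell by 0.53 with CFZ-DOX (adjusted p = 0.0222). The latter call was lost with upper-quartile scaling (log2 −0.02) and without DMSO replicate 2 or CFZ-DOX replicate 3 (log2 −0.46 and −0.38), while under a replicate block Mybbp1a was called lower with DOX as well (adjusted p = 0.0247).

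**Figure D2:**
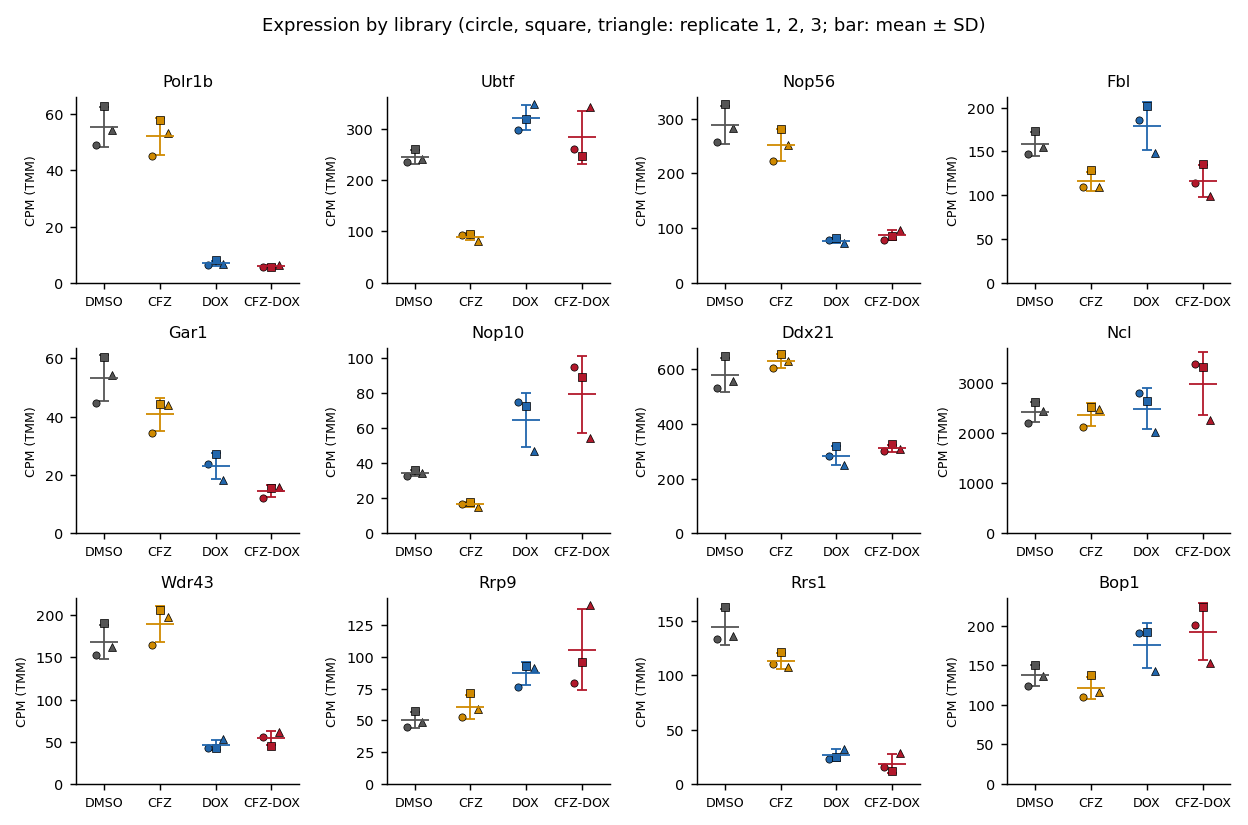
TMM-scaled CPM (y axis, from 0) of the highest and lowest member of each role in each of the 12 libraries (points, with the mean and SD of 3 as bars). Polr1b, Nop56, Wdr43, Ddx21 and Rrs1 drop in all 6 libraries with DOX, while Nop10 and Rrp9 lie above DMSO in all 6.

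Small subunit processing factors fell in 4 of 6 cases under each treatment with DOX. Wdr43, part of the complex that first binds the precursor RNA, was at 152, 191 and 162 CPM with DMSO, 42.2, 42.6 and 53.5 CPM with DOX and 55.8, 44.9 and 61.0 CPM with CFZ-DOX. The treated libraries lay far below DMSO. It fell 3.66-fold (log2 −1.87, SE 0.16, adjusted p = 2.53e-07) and 3.13-fold (log2 −1.64, SE 0.16, adjusted p = 4.37e-07), in all 5 scalings. Bysl, an assembly factor of the pre-small subunit, fell by 1.05 and 1.49 (adjusted p = 0.000155 and 4.83e-06), also in all 5. Its 361 exon bases shared with Ccnd3 on the other strand, a gene with 113% of its counts, make its level uncertain.

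The opposite direction was seen for Rrp9, a protein of the snoRNP that guides small subunit cleavage. Rrp9 was at 44.5, 57.2 and 48.6 CPM with DMSO, 76.5, 93.1 and 91.1 CPM with DOX and 79.2, 96.2 and 141 CPM with CFZ-DOX, above DMSO in every treated library. It rose by 0.79 (SE 0.19, adjusted p = 0.00225) and by 1.07 (SE 0.19, adjusted p = 0.000161), with −0.05 and −0.52 under ribosomal protein scaling. Rrp9 overlaps Parp3 on the other strand by 20 exon bases, and Parp3 had 77.8% of its counts and was also higher with DOX (log2 1.05, adjusted p = 0.000233), so reads of the genes may be mixed. Rrp12 fell by 0.62 and 0.58 (adjusted p = 0.000975 and 0.00126), with −0.24 and −0.08 under upper-quartile scaling. Nop14 fell by 0.50 with DOX (adjusted p = 0.00506) and was not called with CFZ-DOX (log2 −0.08). Utp20 was not called with DOX (log2 −0.26) and fell by 0.72 with CFZ-DOX (adjusted p = 0.00114). With upper-quartile scaling none of these 4 calls of Rrp12, Nop14 and Utp20 held (log2 −0.12 for Nop14, −0.22 for Utp20).

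Of the 9 large subunit factors, 6 fell with DOX and 7 with CFZ-DOX. Rrs1, which helps to bring the small ribosomal RNA particle into the large subunit, was at 134, 164 and 137 CPM with DMSO, 22.5, 25.0 and 32.5 CPM with DOX and 15.6, 11.8 and 28.6 CPM with CFZ-DOX. Treated and DMSO libraries did not overlap. It fell 5.42-fold (log2 −2.44, SE 0.25, adjusted p = 1.55e-06) and 7.73-fold (log2 −2.95, SE 0.26, adjusted p = 2.00e-07). Rrp1b fell by 1.84 and 1.92 (adjusted p = 9.59e-08 and 3.70e-08) and Nip7 by 0.84 and 1.12 (adjusted p = 0.000493 and 3.30e-05). These falls held in all 5 scalings, as did that of Noc2l with DOX (log2 −0.89, adjusted p = 0.00143).

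Bop1, Pes1 and Wdr12 encode the PeBoW complex of large subunit maturation, and their transcripts parted. Wdr12 fell by 1.23 with DOX and by 1.03 with CFZ-DOX (adjusted p = 1.33e-05 and 4.27e-05), in all 5 scalings. Bop1 was at 124, 151 and 137 CPM with DMSO, 191, 192 and 142 CPM with DOX and 201, 224 and 153 CPM with CFZ-DOX. Only DOX replicate 3 overlapped the DMSO range. Bop1 was not called with DOX (log2 0.35, SE 0.17, adjusted p = 0.0777) and rose with CFZ-DOX (log2 0.49, SE 0.17, adjusted p = 0.0165), with −0.54 and −1.17 under ribosomal protein scaling. Without DOX replicate 3 the DOX value was called (log2 0.58, adjusted p = 0.00678), as it was without CFZ-DOX replicate 3 (adjusted p = 0.0338) or with a replicate block (adjusted p = 0.0265). The CFZ-DOX call was lost without DMSO replicate 1 or 3 or CFZ-DOX replicate 1 or 2 (log2 0.36 to 0.46). Mroh1, which overlaps Bop1 on the other strand by 50 exon bases, had 50.2% of its counts and was higher with DOX (log2 0.92, adjusted p = 0.00159).

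Pes1 was not called in either comparison (log2 0.30 and 0.21, SE 0.16). It was called higher with upper-quartile scaling (0.68 and 0.72) and lower with ribosomal protein scaling (−0.59 and −1.44). With library-size scaling its CFZ-DOX value was −0.15, not called. Nop16 was not called with DOX (log2 −0.10, SE 0.15) and fell by 0.65 with CFZ-DOX (adjusted p = 0.00123). Nop2, a ribosomal RNA methyltransferase, fell by 0.47 and 0.51 (adjusted p = 0.0201 and 0.0104). Its DOX call was lost without DMSO replicate 2 or DOX replicate 1 (log2 −0.36 and −0.40), and its CFZ-DOX call without DMSO replicate 2 (log2 −0.42). Noc2l fell by 0.52 with CFZ-DOX (adjusted p = 0.0296), a call lost without DMSO replicate 2 or 3 or CFZ-DOX replicate 3 (log2 −0.33 to −0.54). With upper-quartile scaling the CFZ-DOX calls of Nop16, Nop2 and Noc2l and the DOX call of Nop2 were lost.

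**Figure D3:**
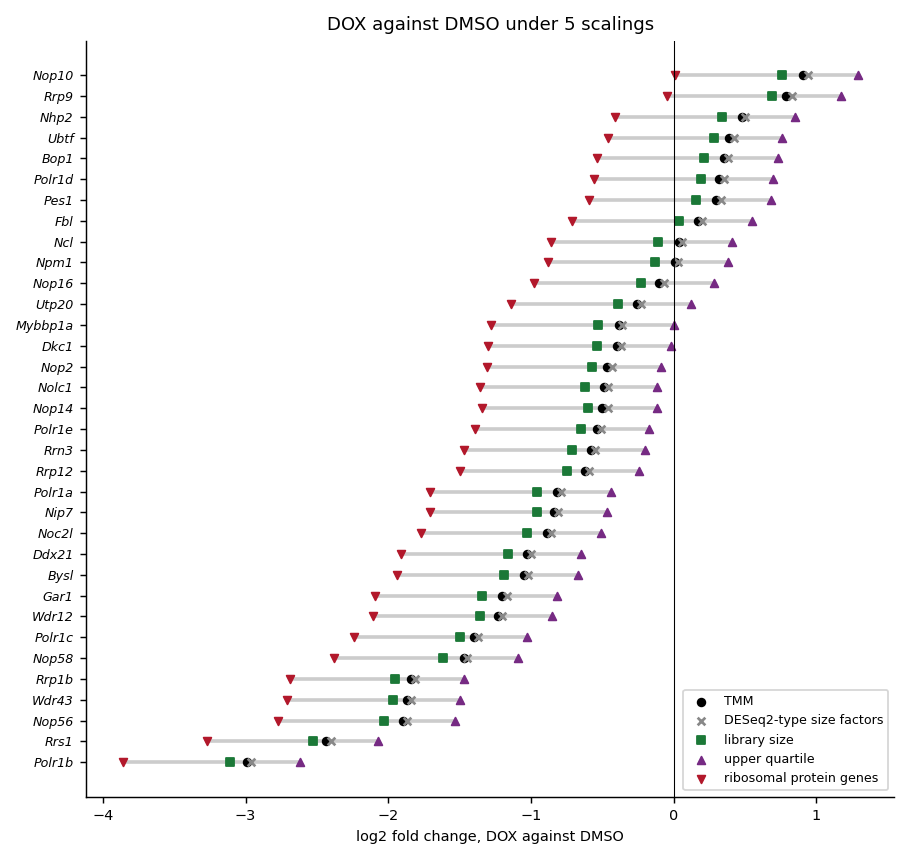
Log2 fold change of each member in DOX against DMSO (x axis) under 5 scalings of the same counts (symbols, joined by a grey line), 3 libraries per group. The members from Polr1b at the bottom to Nip7 keep their fall under all scalings, while those from Npm1 up to Nop10 at the top lie above 0 with TMM and near or below 0 with ribosomal protein scaling.

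Ratios of members within a library do not depend on scaling. Polr1b per Polr1a, per exon length, was 0.661, 0.695 and 0.685 with DMSO, 0.542, 0.602 and 0.561 with CFZ, 0.137, 0.145 and 0.177 with DOX and 0.122, 0.0935 and 0.174 with CFZ-DOX. The ratio was thus lower in all 6 libraries with DOX than in any without it. Nop56 per Fbl went from 1.87 ± 0.0680 (SD, n = 3) with DMSO to 0.448 ± 0.0483 with DOX and 0.787 ± 0.188 with CFZ-DOX, again without overlap. Wdr12 per Bop1 went from 0.157 ± 0.00371 to 0.0528 ± 0.00334 and 0.0551 ± 0.00543.

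Nop10 per Dkc1 was 1.12 ± 0.103 with DMSO and, by contrast, 2.75 ± 0.0998 with DOX and 4.83 ± 0.238 with CFZ-DOX. Its CFZ value was 0.780 ± 0.147. For every ratio above, DMSO libraries did not overlap those with DOX. With 3 libraries against 3, an exact two-sided permutation test cannot give a p below 0.1. Of all gene ratios computed, only Polr1c per Polr1a did overlap. It was 2.50, 2.27 and 2.57 with DMSO, 1.46, 1.24 and 2.43 with DOX and 2.23, 1.67 and 4.57 with CFZ-DOX. The members as a whole took 24.3 ± 1.35 counts per 100 ribosomal protein counts in DMSO libraries and 22.5 ± 0.744 in CFZ libraries, 11.2 ± 0.940 in DOX libraries and 6.87 ± 0.897 in CFZ-DOX libraries. Without Ncl and Npm1 the last 2 values were 4.93 ± 0.575 and 2.76 ± 0.436, against 12.9 ± 0.855 with DMSO. Of all counts, the members took 1.03 ± 0.0911% with DMSO, 0.796 ± 0.0588% with DOX and 0.712 ± 0.0840% with CFZ-DOX. Ribosomal protein genes took 4.22%, 7.11% and 10.4% in the same order. Biogenesis factors thus lost and ribosomal protein genes gained share of the counts in the libraries with DOX. The gain of the ribosomal protein genes made up more of the drop in the ratios to them than the loss of the members.

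**Figure D4:**
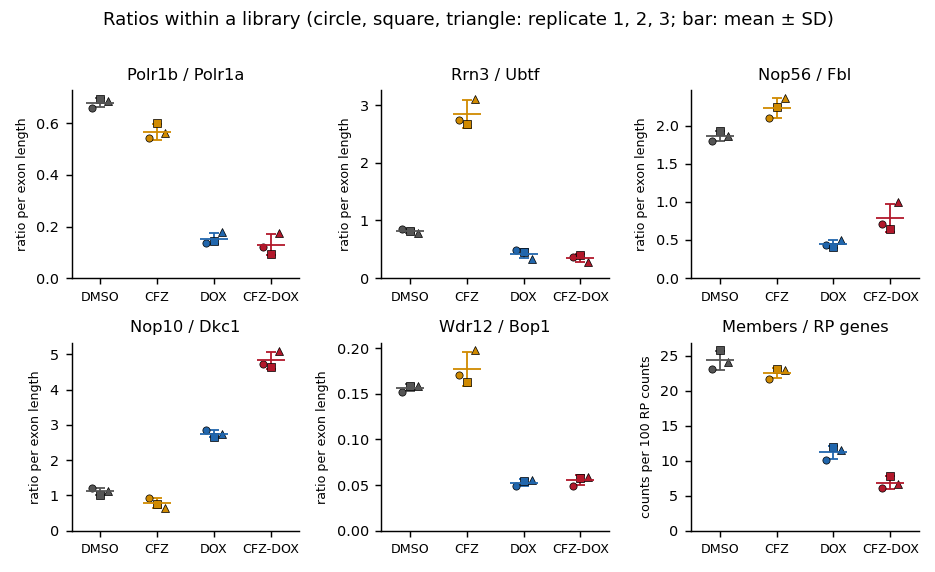
Ratios computed within each of the 12 libraries (points; bars are the mean and SD of 3; y axis from 0), per exon length for the 5 gene ratios and as counts per 100 ribosomal protein (RP) counts for all members. Polr1b / Polr1a, Nop56 / Fbl, Wdr12 / Bop1 and the share against RP genes drop in libraries with DOX, Nop10 / Dkc1 climbs, and Rrn3 / Ubtf is high with CFZ only.

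Carfilzomib alone changed few members. In CFZ against DMSO 3 of 34 rose and 5 fell, where 14.4% of all genes rose and 14.4% fell, so both shares are near the background. The median was −0.03 over the members and −0.01 over all genes. The groups did not overlap for 9 members on the lower side and 5 on the higher side (28.1% and 27.8% of all genes). Ubtf fell from 234, 260.3 and 241 CPM to 92.4, 94.8 and 81.9 CPM, the largest change, with no overlap (2.73-fold, log2 −1.45, SE 0.15, adjusted p = 9.25e-06). Nop10 fell from 32.8, 36.0 and 34.6 CPM to 17.0, 17.8 and 15.0 CPM, also without overlap (log2 −1.05, SE 0.21, adjusted p = 0.00176). Nolc1 fell from 179, 226 and 202 CPM to 124, 138 and 132 CPM (log2 −0.62, SE 0.13, adjusted p = 0.00224), and all CFZ libraries were below DMSO.

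The other falls with CFZ were Fbl (log2 −0.45, SE 0.15, adjusted p = 0.0386) and Polr1d (log2 −0.37, SE 0.11, adjusted p = 0.0207). All 5 falls held in all 5 scalings (12% of all genes fell in all 5). Their calls differed in stability. That of Fbl was lost without any 1 of the 6 DMSO and CFZ libraries (adjusted p = 0.0508 to 0.156), and that of Polr1d without DMSO replicate 2 or 3 or CFZ replicate 1 or 3 (adjusted p = 0.0603 to 0.103), which left 3 members lower in each of those 4 cases.

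Among the rises, Nop14, a factor of the small subunit processome, went from 66.8, 74.3 and 70.5 CPM to 123, 137 and 133 CPM with CFZ (1.86-fold, log2 0.89, SE 0.14, adjusted p = 0.000253). Utp20, a large scaffold protein of the same particle, went from 191, 234 and 212 CPM to 301, 337 and 339.7 CPM (log2 0.62, SE 0.17, adjusted p = 0.0118). In both cases the groups did not overlap, and both rises held in all 5 scalings (7.9% of all genes). Rrn3 went from 132, 141 and 125 CPM to 168, 167 and 168 CPM (log2 0.34, SE 0.12, adjusted p = 0.0476). Its groups did not overlap either, but its call was lost with 3 scalings and without any 1 DMSO or CFZ library, DOX replicate 1 or 2, or CFZ-DOX replicate 1 or 2 (adjusted p = 0.0547 to 0.175). Utp20 was lost without DMSO replicate 1 (log2 0.55, adjusted p = 0.0612), which left Nop14 as the 1 member higher.

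Large subunit members had log2 fold changes of −0.35 to 0.18 with CFZ, and the abundant nucleolar proteins −0.07 to 0.29, and these were not called. Dkc1 became a call with a replicate block (log2 −0.52, adjusted p = 0.0417, against 0.101 without it). Rrn3 per Ubtf, per exon length, was 0.853, 0.823 and 0.786 with DMSO and 2.75, 2.67 and 3.11 with CFZ. With DOX the ratio was 0.481, 0.456 and 0.332, and with CFZ-DOX 0.374, 0.398 and 0.271, so CFZ was alone above DMSO.

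When doxorubicin was added to carfilzomib, 22 members were lower and 6 higher than with CFZ alone (36.9% and 40.4% of all genes), with a median of −0.80. The highest were Nop10 (17.0, 17.8 and 15.0 CPM with CFZ against 94.7, 89.5 and 54.3 CPM with CFZ-DOX, log2 2.26, SE 0.21, adjusted p = 3.47e-07) and Ubtf (92.4, 94.8 and 81.9 against 259.9, 246 and 342 CPM, log2 1.66, SE 0.15, adjusted p = 2.14e-07). The lowest were Polr1b (45.0, 57.7 and 53.3 against 5.71, 5.71 and 6.25 CPM, log2 −3.14, SE 0.17, adjusted p = 2.95e-09) and Rrs1 (110.5, 122 and 108 against 15.6, 11.8 and 28.6 CPM, log2 −2.60, SE 0.26, adjusted p = 5.08e-07). The groups did not overlap for these 4, nor for 21 members on the lower side and 6 on the higher side in all (38% and 39.8% of all genes). In all 5 scalings 14 members were lower and Nop10 was higher (25.3% and 13.4%). With ribosomal protein scaling 32 members were lower and 1, Nop10, higher, and with upper-quartile scaling 14 were lower and 10 higher. Without replicate 3 of DOX and CFZ-DOX the counts were 22 and 7.

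When carfilzomib was added to doxorubicin, few members moved: 5 were lower and 2 higher than with DOX alone (12% and 10.3% of all genes), with a median of −0.02. Nolc1 was lowest, at 141, 155 and 135 CPM with DOX and 77.5, 90.9 and 85.8 CPM with CFZ-DOX (log2 −0.76, SE 0.13, adjusted p = 0.00132). Gar1 was at 23.8, 27.2 and 18.4 CPM and 12.3, 15.7 and 15.9 CPM (log2 −0.66, SE 0.18, adjusted p = 0.0191). Neither overlapped, and with Fbl (log2 −0.62, adjusted p = 0.0112) they were the 3 members lower in all 5 scalings (8.34% of all genes). Nop16 and Rrn3 were also lower (log2 −0.55 and −0.49). Polr1c was at 26.4, 26.8 and 35.2 CPM with DOX and 41.0, 39.9 and 64.3 CPM with CFZ-DOX (log2 0.72, SE 0.18, adjusted p = 0.0116), and Nop14 at 43.3, 50.9 and 55.6 CPM and 56.4, 66.7 and 76.7 CPM (log2 0.42, SE 0.14, adjusted p = 0.0418). These too did not overlap, but both calls were lost with ribosomal protein scaling (log2 −0.05 and −0.36).

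Counts in that comparison were unsteady, and the groups did not overlap for 6 members on the lower side and 3 on the higher side (15.5% and 16.1% of all genes). With the replicate number as a block 8 members were lower, Dkc1, Utp20 and Bysl being added (adjusted p = 0.0473, 0.0141 and 0.0137). There were 11 without replicate 3 of DOX and CFZ-DOX, 8 without DOX replicate 3 alone, and 3 without DOX replicate 2, where Gar1 and Nop16 were lost (adjusted p = 0.0768 and 0.0678). Gar1 was also lost without CFZ-DOX replicate 1 (adjusted p = 0.0663). The call of Nop14 was lost without any 1 DMSO or CFZ library, DOX replicate 1 or 2, or CFZ-DOX replicate 2 or 3 (adjusted p = 0.0617 to 0.148). Outside CFZ-DOX replicate 3, each of these left 1 member higher. With ribosomal protein scaling, which moved the median of all genes by −0.78 here, 29 members were lower.

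The interaction asks whether the change from adding DOX differed between cells with and without CFZ. It was called for 3 members above 0 and 2 below (8.46% and 11.2% of all genes), and 3 of the 5 held in all 5 scalings, Nop10 above 0 (1.5% of all genes) and Utp20 and Rrn3 below (6.58%). Nop10 rose 1.88-fold from DMSO to DOX but 4.79-fold from CFZ to CFZ-DOX (interaction log2 1.35, SE 0.29, adjusted p = 0.00603). For Ubtf these steps were 1.31-fold and 3.15-fold (log2 1.27, SE 0.21, adjusted p = 0.00104), and for Polr1d 1.25-fold and 1.82-fold (log2 0.54, SE 0.16, adjusted p = 0.0256). In all 3 genes the CFZ libraries were the lowest of the 4 groups. The call of Polr1d was lost without any 1 DMSO or CFZ library or CFZ-DOX replicate 2 (adjusted p = 0.0533 to 0.0909), and its value was −0.13 with ribosomal protein scaling.

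Below 0 were Utp20 and Rrn3. Utp20 was at 191, 234 and 212 CPM with DMSO, 301, 337 and 339.7 CPM with CFZ, 182, 201 and 149 CPM with DOX and 126, 157 and 104 CPM with CFZ-DOX (interaction log2 −1.08, SE 0.23, adjusted p = 0.00604). Rrn3 was at 132, 141 and 125 CPM, 168, 167 and 168 CPM, 94.3, 95.8 and 76.0 CPM and 64.0, 64.6 and 61.2 CPM in the same order (interaction log2 −0.82, SE 0.17, adjusted p = 0.00441). CFZ was the highest group and CFZ-DOX the lowest for both genes, with DOX and CFZ-DOX overlapping for Utp20 only. With a replicate block 5 members lay below 0, Nop14, Bysl and Nop16 being added (adjusted p = 0.0302, 0.0460 and 0.0390), and with ribosomal protein scaling 17. Without replicate 3 of DOX and CFZ-DOX there were 5 above and 4 below 0.

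**Figure D5:**
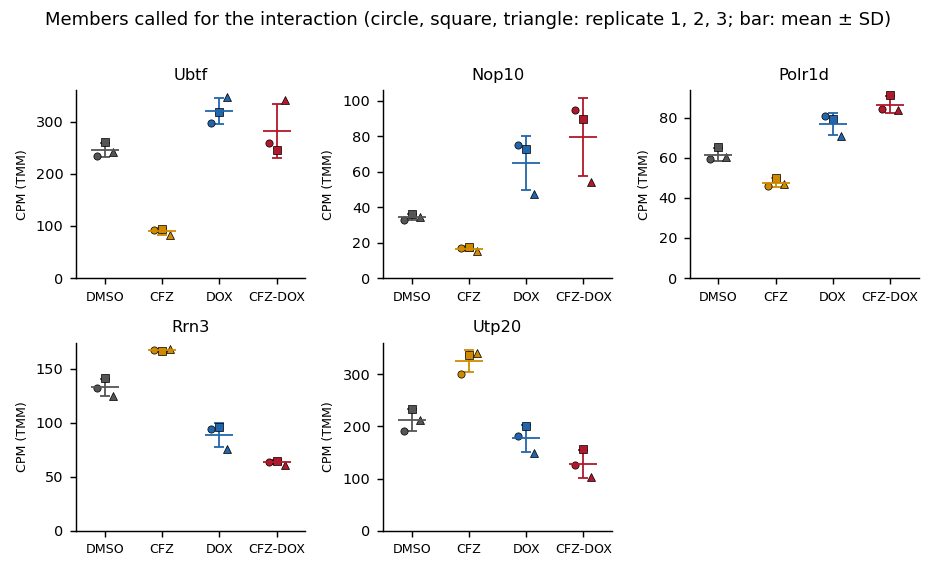
TMM-scaled CPM (y axis, from 0) of the 5 members called for the interaction in each of the 12 libraries (points; bars are the mean and SD of 3). Ubtf, Nop10 and Polr1d are lowest with CFZ alone, whereas Rrn3 and Utp20 are highest with CFZ alone and lowest with CFZ-DOX.

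Other genes of the same pathways were taken from a list of 131, of which 130 were tested. With DOX 91 fell and 8 rose (median −0.78), against 31.3% and 36.1% of all genes, and with CFZ-DOX 92 fell and 12 rose (median −0.87), against 35.7% and 39.3%. Of these, 66 and 71 fell in all 5 scalings (22.3% and 24.8% of all genes). With ribosomal protein scaling 122 and 130 were lower and 0 higher. With upper-quartile scaling 66 and 71 were lower, and 22 and 29 higher. The falls with DOX took in 34 of 47 other large subunit factors, 33 of 46 other small subunit factors, 11 of 13 exosome genes, 7 of 13 other polymerase I factors and 6 of 11 other snoRNP genes. The lowest with DOX were Gnl3, the nucleolar GTPase nucleostemin (105 ± 13.8 to 11.1 ± 1.47 CPM, SD, n = 3, log2 −3.24, adjusted p = 1.47e-08), and Ppan of large subunit assembly (60.8 ± 5.71 to 6.70 ± 2.07 CPM, log2 −3.18, adjusted p = 2.32e-07). With CFZ-DOX they were Exosc7, a subunit of the RNA exosome (22.3 ± 0.919 to 1.92 ± 0.263 CPM, log2 −3.54, adjusted p = 3.62e-09), and Mphosph10 of the small subunit processome (52.7 ± 3.28 to 5.63 ± 2.48 CPM, log2 −3.22, adjusted p = 4.79e-07).

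The highest rises included small subunits that the nuclear RNA polymerases share. Polr2l rose by 0.90 with DOX and 1.16 with CFZ-DOX (adjusted p = 0.000740 and 6.55e-05), Polr2f by 0.85 with DOX (adjusted p = 0.00259), and Nsa2, a large subunit factor, by 1.27 with CFZ-DOX (adjusted p = 5.50e-06). All 4 rises were lost with ribosomal protein scaling, where CFZ-DOX was called lower for Polr2l (log2 −0.52) and Nsa2 (log2 −0.40), and Polr2f with DOX was at −0.05. With CFZ alone 32 pathway genes rose and 8 fell (median 0.21), against 14.4% of all genes in each direction. In all 5 scalings 16 rose and 5 fell (7.9% and 12% of all genes), and 17 were higher with library-size or ribosomal protein scaling. Riok3, a kinase of small subunit maturation, rose from 60.6 ± 4.19 to 268 ± 23.5 CPM (log2 2.15, adjusted p = 3.46e-07), and Taf1a, a subunit of the selectivity factor of RNA polymerase I, from 2.83 ± 0.243 to 9.46 ± 2.30 CPM (log2 1.74, adjusted p = 8.59e-05). The lowest were Polr1g, a further polymerase I subunit (log2 −0.97, adjusted p = 0.000678), and Polr2l (log2 −0.94, adjusted p = 0.00205).

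The members also share features of their genes. On the deposited coordinates (GRCm39), 4 of the 34 (Nop56, Nop58, Ncl and Wdr43) host genes with Snord, Snora or Scarna symbols on their own strand. This is 11.8%, against 0.493% of 16632 genes tested. Genes of snoRNAs under other symbols were counted in neither share. Nop56 (chromosome 2, 130116350 to 130121233, plus strand) hosts Snord110 and Snord57, Nop58 (chromosome 1, 59724130 to 59758203, plus strand) Snord11 and Snord70, Wdr43 (chromosome 17, 71922890 to 71966026, plus strand) Snord53 and Snord92, and Ncl (chromosome 1, 86272441 to 86287122, minus strand) Snora75 and Snord82. Of these 4 hosts, 3 were among the members that fell with DOX in all 5 scalings, and Ncl was not. Such falls were seen for 13 of the 34 members and 22.3% of all genes. Polr1b (chromosome 2, 128942915 to 128968514, plus strand) and Rrs1 (chromosome 1, 9615633 to 9617680, plus strand) overlap no other gene, nor do Ubtf (chromosome 11, 102195386 to 102210568, minus strand), Nop10 (chromosome 2, 112092271 to 112093614, plus strand), Rrn3 (chromosome 16, 13598572 to 13632703, plus strand) and Utp20 (chromosome 10, 88582469 to 88662666, minus strand). The members had a median of 14.5 exon blocks, against 7 over all genes. Across the 34 members the Spearman correlation between exon blocks and the log2 fold change was 0.52 with CFZ and −0.11 with DOX, against 0.10 and −0.24 across 16648 genes. These correlations run across genes of the same libraries, which are not independent replicates.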

How the data were processed

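The table deposited by the authors holds raw counts per Ensembl gene ID with coordinates and exon length. The tools listed in the submitters' processing notes are Subread 2.0.2 with featureCounts, STAR 2.7.9a and Trimmomatic 0.39, and the build is GRCm39. The annotation release, strand setting and handling of read pairs are not given in the sources used here. Groups and replicate numbers come from the titles. Symbols from reference gene tables matched 52073 of 56980 IDs (91.4%). IDs without a symbol held 0.249 to 0.724% of a library's counts and stayed in the tests.

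Genes were filtered with filterByExpr (minimum count 10, minimum total 15) and tested with edgeR 4.0.16 in R 4.3.3 (TMM scaling, robust quasi-likelihood fit, a mean per group in 1 model of 12 libraries, prior count 0.125). P-values were adjusted by Benjamini-Hochberg over 16648 genes. Standard errors were derived as |log2 fold change| over the root of its F statistic. The script was tested on simulated data. Other scalings, filters and thresholds, limma 3.58.1 (voom), DESeq2 1.42.0, a replicate block and leaving out libraries were run as alternatives. The members and lists were chosen with earlier results of these data known. All members are named. Full values are given for the highest and lowest of each role against DMSO with DOX and CFZ-DOX, the 3 highest and 3 lowest called with CFZ and for the interaction, the 2 highest and 2 lowest in the other comparisons, and, of the pathway list, the 2 highest and 2 lowest called with a mean of at least 5 CPM. Members with promoter windows printed were chosen after their values were seen.

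Whether replicate numbers pair libraries was judged from the correlation of deviations from the group means, since no label says so. Pearson r across genes was 0.30 to 0.42 in CFZ against DMSO, 0.21 to 0.26 in DOX against DMSO and 0.35 to 0.65 in CFZ-DOX against DOX, so these were taken as paired. The lowest r was 0.06 in CFZ-DOX against DMSO and 0.02 in CFZ-DOX against CFZ, which were not. All the same, the main calls in every comparison come from the model without pairs. Pairing enters only through the replicate block, an alternative that changed some calls, as given with those members. Counts of replicates differed by more than sampling noise in every group (chi-square per degree of freedom 12.4 to 28.8 without DOX, 45.1 to 107 with DOX).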

Additional observations from a re-analysis of the deposited data

Results flagged for a closer look

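For 5 members the effect of DOX differed between cells with and without CFZ, by edgeR's test of the interaction itself. The log2 interaction was 1.35 for Nop10, 1.27 for Ubtf and 0.54 for Polr1d, and −1.08 for Utp20 and −0.82 for Rrn3. In each of these genes the CFZ libraries lay beyond the DMSO libraries, on the lower side for the first 3 and on the higher side for the other two.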

How the results depend on the processing

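The results were 12 counts of members and 105 gene values, run under 12 alternatives and with each of 12 libraries left out. The alternative with only the libraries compared was not run for the interaction (2 of the counts and 5 of the gene values). Among the 105 gene values, the sign turned under ribosomal protein scaling in DOX against DMSO for Bop1 (−0.54), Fbl (−0.71), Ncl (−0.86), Nhp2 (−0.41), Polr1d (−0.56), Rrp9 (−0.05) and Ubtf (−0.46). It turned in CFZ-DOX against DMSO for Bop1 (−1.17), Ncl (−1.36), Nhp2 (−0.93), Nop10 (−0.47), Polr1d (−1.15) and Rrp9 (−0.52), and against CFZ for Bop1 (−0.89), Nhp2 (−0.81), Polr1d (−0.68) and Rrp9 (−0.70). It turned against DOX for Nop14 (−0.36) and Polr1c (−0.05), and in the interaction for Polr1d (−0.13). The values of Npm1 and Pes1 against DMSO that turned under another scaling are given with those members. Ncl turned with library-size scaling (−0.11 with DOX, −0.07 with CFZ-DOX) and, with DOX, without DMSO replicate 1 (−0.04), DOX replicate 1 (−0.07) or DOX replicate 2 (−0.02), within a range of −0.07 to 0.26 over the libraries left out. Upper-quartile scaling turned Fbl in CFZ-DOX against DMSO (0.05), and Nop2 (0.04) and Polr1e (0.15) against CFZ.

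Counts moved as follows. For CFZ, 1 member was higher and 3 lower at an adjusted p under 0.01, 5 and 9 with only the libraries compared, and 9 lower without replicate 3 of DOX and CFZ-DOX. For DOX, 2 were higher with library size or the stricter threshold, 3 with no filter, 8 higher and 13 lower with upper quartile, and 0 and 31 with ribosomal protein scaling. For CFZ-DOX against DMSO, 3 were higher with library size, 8 with a filter of 1 CPM, 10 higher and 13 lower with upper quartile, and 0 higher with ribosomal protein scaling. Against CFZ, 10 were higher and 14 lower with upper quartile, and 1 higher with ribosomal protein scaling. Against DOX, 0 were higher with library size, ribosomal protein scaling, the stricter threshold or only the libraries compared, and 1 with no filter. There 8 were lower with library size, 3 with upper quartile, 29 with ribosomal protein scaling, 9 with no filter, 1 at the stricter threshold or with only the libraries compared, 11 without replicate 3 of DOX and CFZ-DOX, and 8 with the replicate block. In the interaction ribosomal protein scaling gave 1 higher and 17 lower, the block 5 lower, and leaving out replicate 3 of both DOX groups 5 and 4. The cause of these moves was not tested. Beyond the calls given in the report, the replicate block changed no other member's call.

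With 1 library left out, 1 to 3 members were higher and 3 to 7 lower for CFZ, 2 to 8 and 19 to 22 for DOX, 4 to 7 and 19 to 23 for CFZ-DOX, 6 to 7 and 20 to 22 against CFZ, 1 to 3 and 3 to 8 against DOX, and 2 to 4 and 2 to 3 in the interaction. Depth was not limiting for these members, since the lowest, Polr1b with CFZ-DOX, was at 5.71 CPM against a limit of 0.106 CPM from 3 counts in the smallest library.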
